A study of Mus musculus with 32 samples.

Results

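Myl9, Myo1f, Car4, Greb1l, Adgre5 and Enpp3 were the 6 genes whose array signal showed the largest upward difference between mouse BP14A embryonic stem cells (ESCs) given doxycycline and the same cells without it. They were selected on that difference, as its 6 largest values, and are 6 of 18193 genes measured, and each is read here through the probe set that was brightest on average. All 6 were among the 15497 genes that passed the low-signal filter, a group mean of at least log2 4.05 (the 40th percentile of all values), and all 6 also reached it in at least 1 group outside those ESCs. Because that difference chose the genes, their values in these ESCs are given as a description, with no test.

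BP14A cells carry doxycycline-driven piggyBac transgenes for 3 transcription factors of the germ line, Blimp1 (gene Prdm1, B), Prdm14 (P14) and Tfap2c (A). BP14, P14A and P14 cells carry the subsets in their names. The transgenes are tagged (Avi-Blimp1, 3xFLAG-Prdm14, V5-Tfap2c) and run from a tetO promoter. The cells are male, of C57BL/6 and 129 background, and all of them, the parental clone included, also carry Rosa26-rtTA and the reporters Blimp1-mVenus and stella-ECFP. Levels were measured on 32 Affymetrix arrays in 16 groups of 2. The 22 newly submitted arrays held BP14A ESCs after 2 days of doxycycline, sorted as positive for stella-ECFP, and BP14A ESCs kept in 2i+LIF. Others held cells aggregated from 36 h epiblast-like cells (EpiLCs) and cultured with doxycycline at 1.5 μg/ml but no cytokines, namely BP14A cells (day 2 and day 4) and cells of the smaller combinations (day 2). Ck-PGCLCs, germ-cell-like cells of the parental clone induced by BMP4, BMP8A, SCF, LIF and EGF, were taken at day 2 and day 4. The controls were the parental clone with doxycycline at day 2, which has no factor transgene, and its 36 h EpiLCs. The 10 earlier arrays, re-used by the submitters, held Ck-PGCLCs at day 6, 48 h EpiLCs and 2i+LIF ESCs of another male C57BL/6 reporter line, primordial germ cells (PGCs) of E9.5 embryos carrying stella-EGFP, and the epiblast of E5.5 embryos. The labels give C57BL/6 background for the PGCs and the epiblast as well. The factor lines are transfected clones other than the parental clone, so transgenes and clone cannot be told apart.

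Prdm1, Prdm14 and Tfap2c are core factors of germ cell specification, which BMP4 from neighbouring tissue starts in the epiblast of the embryo. ESCs resemble the naive inner cell mass and EpiLCs the later epiblast, and EpiLCs can be turned into PGC-like cells. None of the 6 genes is a classical germ cell marker, and 5 of them code for proteins of the cell surface or of the cytoskeleton. Myl9 codes for a regulatory light chain of myosin II, whose phosphorylation switches on contraction in smooth muscle and non-muscle cells. Myo1f is a class I unconventional myosin known from neutrophils and other leukocytes, where it links membrane to actin. Car4 is a carbonic anhydrase held on the outer cell surface by a lipid anchor. Adgre5, also known as CD97, is an adhesion G-protein-coupled receptor that binds CD55. Enpp3 is an ectoenzyme that cleaves extracellular nucleotides and is known as a marker of activated basophils. Greb1l is a relative of the estrogen-responsive gene Greb1 and is needed for kidney development.

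Upstream sequence was on record for 4 of the 6 genes in the RefSeq promoter table of assembly GRCm38.p6, and the 250 bases before each annotated start are shown because Prdm1, Prdm14 and Tfap2c bind DNA and Myl9 belongs to a family often bound by serum response factor. Capitals mark matches, on either strand, to 4 motifs searched: the AP-2 site GCCNNNGGC, the Prdm14 core GGTCTC, the Prdm1 core GAAAGT and the CArG box of serum response factor. Myl9 lies at chr2:156775214-156775463 on the plus strand, with a CArG box whose first base is at -161 from the start. Myo1f lies at chr17:33555457-33555706 on the plus strand, with 1 Prdm1 core at -152, read on the opposite strand. Car4 lies at chr11:84957504-84957753 on the plus strand, with 1 AP-2 site at -106. Enpp3 lies at chr10:24836196-24836445 on the minus strand and holds none of the 4 motifs.
Myl9: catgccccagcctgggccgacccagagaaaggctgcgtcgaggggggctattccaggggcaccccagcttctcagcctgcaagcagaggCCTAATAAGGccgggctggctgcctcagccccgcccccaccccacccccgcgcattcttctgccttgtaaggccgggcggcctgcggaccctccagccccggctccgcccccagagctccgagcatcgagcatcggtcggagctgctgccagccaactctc
Myo1f: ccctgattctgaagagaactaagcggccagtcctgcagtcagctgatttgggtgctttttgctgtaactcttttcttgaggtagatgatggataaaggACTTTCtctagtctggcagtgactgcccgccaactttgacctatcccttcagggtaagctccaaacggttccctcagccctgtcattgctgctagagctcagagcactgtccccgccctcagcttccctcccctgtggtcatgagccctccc
Car4: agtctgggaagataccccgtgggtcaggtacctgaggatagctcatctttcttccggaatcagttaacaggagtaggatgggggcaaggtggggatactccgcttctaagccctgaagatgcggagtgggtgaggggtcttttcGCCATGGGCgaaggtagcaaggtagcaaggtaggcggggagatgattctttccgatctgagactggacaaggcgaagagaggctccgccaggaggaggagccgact
Enpp3: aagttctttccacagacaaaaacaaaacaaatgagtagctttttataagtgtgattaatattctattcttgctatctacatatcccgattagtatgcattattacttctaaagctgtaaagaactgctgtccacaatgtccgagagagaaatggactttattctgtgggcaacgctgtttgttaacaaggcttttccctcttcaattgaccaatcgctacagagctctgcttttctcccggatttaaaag
Of 32851 upstream windows of this length, 1.47% held a CArG box, 12.3% the Prdm1 core, 13.7% the AP-2 site and 13.7% the Prdm14 core. The Myl9 window had a GC content of 70% and 16 CpG dinucleotides and the Car4 window 56.4% and 11, against medians of 52.4% and 6 over all windows. The Myo1f window had 53.6% and 4, and the Enpp3 window 36.8% and 5. The 4 windows shared no motif among those searched.

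In BP14A ESCs with doxycycline, Myl9 had log2 signals of 10.02 and 10.52, against 2.82 and 3.06 in BP14A ESCs. Myo1f had 9.20 and 9.44 with doxycycline and 2.33 and 2.77 without. Car4 had 9.29 and 9.77 with doxycycline and 2.63 and 3.09 without. These 3 genes thus lay below the filter line of 4.05 in both untreated arrays and far above it in both treated ones. Greb1l had 7.92 and 8.25 with doxycycline and 2.68 and 3.17 without. Adgre5 had 8.96 and 9.23 with doxycycline and 4.46 and 3.61 without, so the untreated arrays lay on either side of the line. Enpp3 had 10.49 and 10.84 with doxycycline and 5.52 and 5.86 without, which puts it above the line in every array of the series. The differences (doxycycline minus none, log2 ± SE) were 7.33 ± 0.35 for Myl9, 6.77 ± 0.40 for Myo1f, 6.67 ± 0.35 for Car4, 5.16 ± 0.42 for Greb1l, 5.06 ± 0.27 for Adgre5 and 4.97 ± 0.23 for Enpp3. In this contrast 5.51% of the tested genes were higher and 3.9% lower by the calling rule used below, and nothing is read from it because the contrast made the choice. The first gene outside the 6 was Rhox6, a homeobox gene of the reproductive lineage, with 4.84 ± 0.39, followed by Rhox9 (4.72), Pdzk1 (4.70), Aard (4.66), Cebpd (4.64) and Plcd1 (4.61). The treated cells were sorted by their reporter and the untreated cells carry no named sort. In the sample titles only the untreated cells are named 2i+LIF, and only the treated cells carry a day. Doxycycline, sorting and any difference in medium or culture time therefore cannot be told apart in these values. In bulk samples such as these, fewer cells of a type and less RNA per cell cannot be told apart either.

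**Figure D1:**
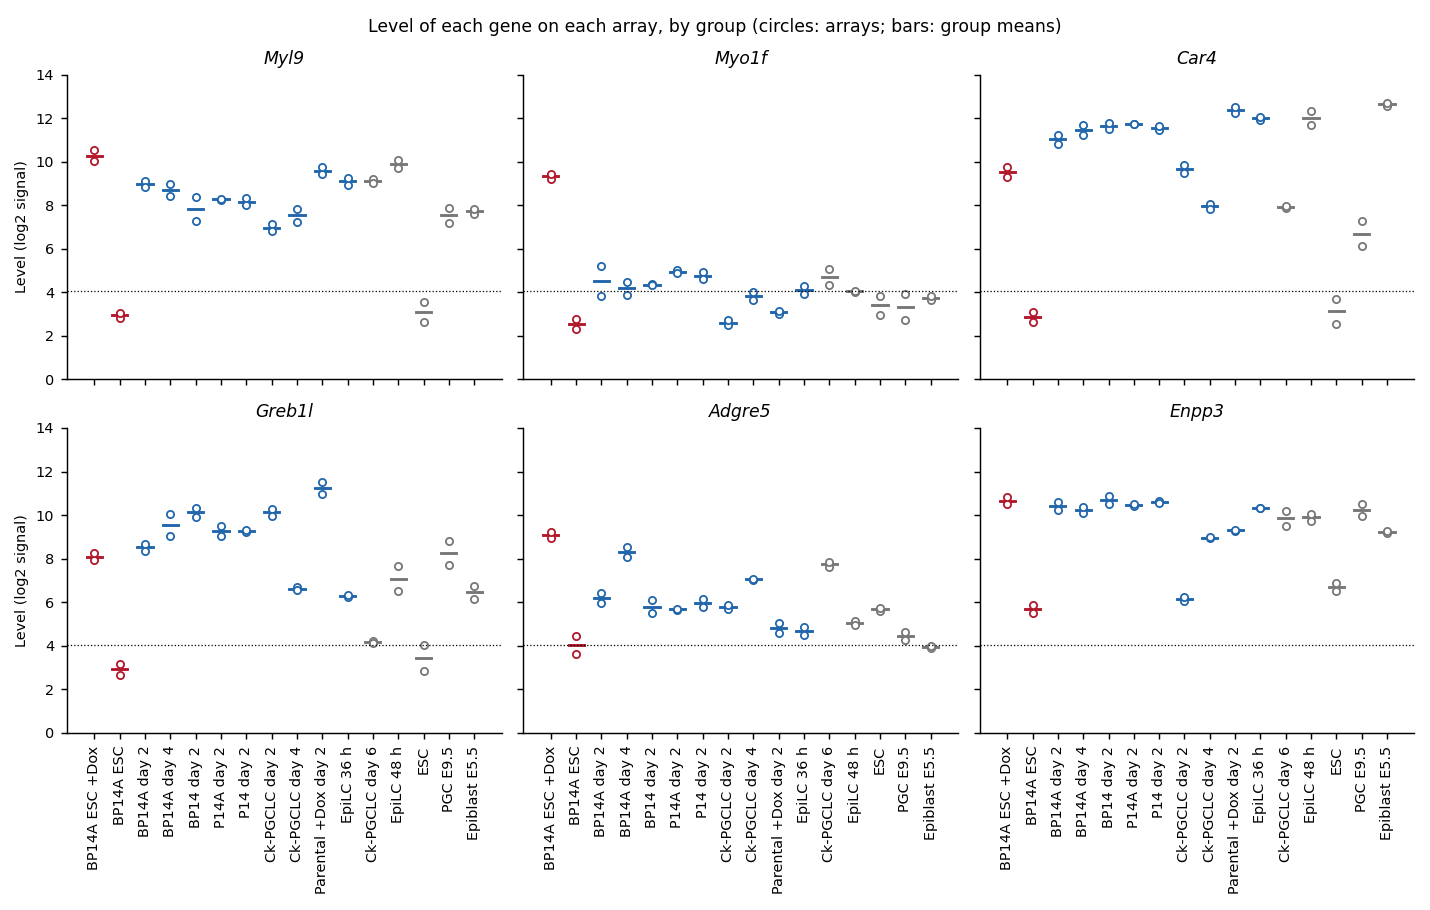
Level of each of the 6 genes (log2 signal, y axis) on each array (circles) with group means (bars) in the 16 groups (x axis); red marks BP14A ESCs with and without doxycycline, blue the other newly submitted arrays, grey the earlier arrays, and the dotted line the filter at 4.05. Myo1f stands above 9 only in BP14A ESCs with doxycycline, while Myl9, Car4, Greb1l and Enpp3 are also high in many aggregate, EpiLC and embryo groups.

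None of the 3 factor genes had both arrays of the treated ESCs above both arrays of the untreated ones. Prdm1 had 7.91 and 7.91 in BP14A ESCs with doxycycline and 7.98 and 8.01 in BP14A ESCs. Tfap2c had 10.47 and 10.17 with doxycycline and 10.34 and 10.39 without, and Prdm14 had 7.32 and 7.29 with doxycycline and 9.99 and 10.08 without. Whether these probe sets read the transgene RNA is not known. The endogenous stella gene Dppa3, whose reporter was used for the sort, had 12.68 and 12.59 with doxycycline and 11.33 and 11.43 without. In BP14A cells at day 2 the 3 factor genes were all above the parental cells, with Prdm14 at 8.61 and 8.32 in BP14A cells against 2.87 and 2.85 in parental cells.

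Replicate arrays correlated at 0.966 to 0.986 over the 15497 tested genes, after normalization. The 5' minus 3' difference of the Gapdh control probe sets ran from -4.66 to -0.07, and 6 arrays lay below -2.5, among them the 2nd array of BP14A ESCs with doxycycline (-3.13) and the 1st of BP14A ESCs (-2.82). The list of 11 naive ESC markers averaged log2 9.35 to 9.65 in BP14A ESCs with doxycycline and 10.86 to 10.96 in BP14A ESCs, with all 11 genes above the filter line in both. Of 12 leukocyte markers, which bear on Myo1f, Adgre5 and Enpp3, 6 to 7 lay above the line in both groups. The list averaged 4.24 to 4.38 with doxycycline and 4.44 to 4.47 without. Of this list, the group means of Ptprc stayed between 1.83 and 3.91 and those of Itgb2 between 0 and 1.74 over all 16 groups. Other markers of the list were brighter, and in PGCs 8 to 10 of the 12 lay above the line. The part of leukocyte RNA in the values of the 6 genes was not tested. The 8 smooth muscle markers, which bear on Myl9, summed to log2 10.08 to 10.86 with doxycycline and 8.11 to 8.18 without, with 6 and 5 of the 8 above the line; Acta2 averaged 9.77 with doxycycline and 5.46 without, and Myh11 3.82 with and 4.60 without. The part of such cells or of RNA quality in the values of Myl9 was not tested.

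Myl9 was highest in BP14A ESCs with doxycycline, at 10.27 ± 0.35 (log2, mean ± SD, n = 2 here and below). It stood at 9.89 ± 0.25 in 48 h EpiLCs, 9.58 ± 0.23 in parental cells with doxycycline, 9.11 ± 0.10 in day 6 Ck-PGCLCs and 9.09 ± 0.21 in 36 h EpiLCs. BP14A cells had 8.97 ± 0.18 at day 2 and 8.70 ± 0.39 at day 4. P14A (8.26 ± 0.02), P14 (8.17 ± 0.24) and BP14 cells (7.83 ± 0.80) followed, then the epiblast (7.73 ± 0.16), PGCs (7.54 ± 0.48), and Ck-PGCLCs at day 4 (7.53 ± 0.42) and day 2 (6.98 ± 0.23). The ESC groups lay far below the rest, at 3.10 ± 0.65 in the earlier ESCs and 2.94 ± 0.17 in BP14A ESCs. The arrays of groups next to each other in this order overlapped except at 4 steps: below the parental cells, below BP14A cells at day 4, on either side of day 2 Ck-PGCLCs.

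Myo1f differed from the other 5 genes in its pattern. Its 9.32 ± 0.17 in BP14A ESCs with doxycycline stood alone, and the next group, P14A cells, had 4.94 ± 0.10. From there the means ran down with overlapping arrays through P14 cells (4.77 ± 0.23), day 6 Ck-PGCLCs (4.69 ± 0.51), BP14A cells at day 2 (4.53 ± 0.96), BP14 cells (4.35 ± 0.04), BP14A cells at day 4 (4.18 ± 0.43), 36 h EpiLCs (4.10 ± 0.27) and 48 h EpiLCs (4.04 ± 0.04). Below the filter line lay 8 of the 16 groups, among them day 4 Ck-PGCLCs (3.83 ± 0.27), the epiblast (3.75 ± 0.14), earlier ESCs (3.41 ± 0.61), PGCs (3.32 ± 0.84) and parental cells (3.08 ± 0.11). Day 2 Ck-PGCLCs (2.61 ± 0.16) and BP14A ESCs (2.55 ± 0.31) were lowest and overlapped each other.

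Car4 was highest in the epiblast, at 12.63 ± 0.11, followed by parental cells (12.36 ± 0.19), 48 h EpiLCs (12.01 ± 0.48) and 36 h EpiLCs (12.00 ± 0.10). The factor-driven aggregates were close together, from P14A cells at 11.74 ± 0.01 through BP14 (11.63 ± 0.22), P14 (11.55 ± 0.10) and day 4 BP14A cells (11.45 ± 0.32) to day 2 BP14A cells at 11.02 ± 0.30, each overlapping the next. Day 2 Ck-PGCLCs (9.65 ± 0.27) overlapped BP14A ESCs with doxycycline (9.53 ± 0.34). Ck-PGCLCs at day 4 (7.95 ± 0.18) and day 6 (7.92 ± 0.06) overlapped each other and lay above PGCs (6.70 ± 0.78). Earlier ESCs (3.13 ± 0.81) and BP14A ESCs (2.86 ± 0.33) again came last. Doxycycline-treated BP14A ESCs thus stayed below every EpiLC, epiblast and factor-aggregate array in Car4.

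Greb1l was highest in parental cells, at 11.25 ± 0.37, with no overlap to the next groups, day 2 Ck-PGCLCs (10.12 ± 0.21) and BP14 cells (10.12 ± 0.28). Overlapping arrays joined these to day 4 BP14A (9.54 ± 0.69), P14A (9.27 ± 0.33) and P14 cells (9.26 ± 0.09). A second overlapping run held day 2 BP14A cells (8.51 ± 0.25), PGCs (8.26 ± 0.76) and BP14A ESCs with doxycycline (8.09 ± 0.23). Lower still were 48 h EpiLCs (7.08 ± 0.81), day 4 Ck-PGCLCs (6.63 ± 0.07), the epiblast (6.46 ± 0.43) and 36 h EpiLCs (6.27 ± 0.06), and then day 6 Ck-PGCLCs alone at 4.19 ± 0.06. The ESC groups closed the order at 3.44 ± 0.82 for earlier ESCs and 2.92 ± 0.35 for BP14A ESCs.

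Adgre5 was highest in BP14A ESCs with doxycycline (9.09 ± 0.19), then in day 4 BP14A cells (8.30 ± 0.32), day 6 Ck-PGCLCs (7.74 ± 0.17) and day 4 Ck-PGCLCs (7.05 ± 0.05), with no overlap at any of these steps. Day 2 groups formed an overlapping run of BP14A (6.21 ± 0.33), P14 (5.95 ± 0.27), BP14 (5.80 ± 0.43), Ck-PGCLC (5.79 ± 0.15) and P14A cells (5.68 ± 0.02), joined by the earlier ESCs (5.67 ± 0.09). A lower overlapping run held 48 h EpiLCs (5.03 ± 0.13), parental cells (4.82 ± 0.33), 36 h EpiLCs (4.68 ± 0.24), PGCs (4.44 ± 0.25), BP14A ESCs (4.03 ± 0.60) and the epiblast (3.94 ± 0.06).

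Enpp3 was above the filter line in all 16 groups. It stood near the same level in BP14 cells (10.69 ± 0.28), BP14A ESCs with doxycycline (10.67 ± 0.25) and P14 cells (10.60 ± 0.06), whose arrays overlapped. A second overlapping run went from P14A cells (10.48 ± 0.07) through BP14A cells at day 2 (10.40 ± 0.26), 36 h EpiLCs (10.33 ± 0.02), BP14A cells at day 4 (10.23 ± 0.19), PGCs (10.23 ± 0.39) and 48 h EpiLCs (9.89 ± 0.25) to day 6 Ck-PGCLCs (9.85 ± 0.48). Parental cells (9.29 ± 0.06) overlapped the epiblast (9.22 ± 0.06) and lay above day 4 Ck-PGCLCs (8.97 ± 0.03). The lowest groups were earlier ESCs (6.69 ± 0.26), day 2 Ck-PGCLCs (6.16 ± 0.14) and BP14A ESCs (5.69 ± 0.24), with no overlap among the 3.

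The tests below used comparisons that contain no array of the choosing contrast. Each is a limma contrast within 1 model of all 32 arrays, with p-values adjusted over the 15497 tested genes by the Benjamini-Hochberg method. A gene is said to be higher or lower when the adjusted p was under 0.05 and the difference at least 2-fold, and such a gene is called. The design text speaks of biological duplicates but separate cultures are named in no label, and the p-values cover only the spread between the arrays of a group, some of which may be technical.

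Against parental cells also given doxycycline, day 2 BP14A cells were higher in Myo1f, Adgre5 and Enpp3 and lower in Car4 and Greb1l. These were 3 and 2 of the 6 genes, where 6.63% and 7.25% of all tested genes were higher and lower. The members' median difference was 0.25, against 0.05 over all tested genes. Greb1l had 8.69 and 8.33 in BP14A cells, against 11.51 and 10.99 in parental cells, a difference of -2.73 ± 0.42 (log2 ± SE, adjusted p = 6.07e-05). Its 2 groups lay more than 2 log2 units apart at their nearest arrays, with the factor cells below. Adgre5 had 6.44 and 5.97 in BP14A cells and 4.59 and 5.05 in parental cells, a difference of 1.38 ± 0.27 (adjusted p = 0.000592). Enpp3 had 10.59 and 10.22 in BP14A cells and 9.25 and 9.33 in parental cells, a difference of 1.11 ± 0.23 (adjusted p = 0.0012). For both genes every BP14A array was above every parental array, and Enpp3 was already high in the parental cells. Myo1f had 5.21 and 3.85 in BP14A cells and 3.0 and 3.16 in parental cells, a difference of 1.45 ± 0.40 (adjusted p = 0.0113). Both parental arrays and the 2nd BP14A array lay below the filter line. Whether Myo1f was detected there is not known, so the size of this difference is uncertain. Car4 had 11.23 and 10.82 in BP14A cells and 12.23 and 12.50 in parental cells, a difference of -1.34 ± 0.35 (adjusted p = 0.00772). Myl9, with 9.10 and 8.84 in BP14A cells and 9.42 and 9.74 in parental cells, had a difference of -0.61 ± 0.35 that did not pass the test (adjusted p = 0.238). The Myo1f call was lost without the 1st BP14A array (0.77, adjusted p = 0.261) or the 1st parental array (1.37, adjusted p = 0.0752), and the Car4 call without the 2nd BP14A array (-1.13, adjusted p = 0.079) or the 2nd parental array (-1.20, adjusted p = 0.0681). Enpp3 fell short of 2-fold without the 1st BP14A array (0.93, adjusted p = 0.0283).

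The cells with fewer factors were compared with the same parental arrays, so these comparisons are not independent of each other. In P14 cells, which carry Prdm14 alone, Myo1f, Adgre5 and Enpp3 were higher and Myl9 and Greb1l lower, with 6.34% of all tested genes higher and 6.6% lower. Myo1f had 4.93 and 4.61 in P14 cells, a difference from parental cells of 1.69 ± 0.40 (adjusted p = 0.00396), and Enpp3 10.64 and 10.56, a difference of 1.31 ± 0.23 (adjusted p = 0.000272). Greb1l had 9.20 and 9.32 in P14 cells, a difference of -1.99 ± 0.42 (adjusted p = 0.0016). In each of these genes both P14 arrays lay on the same side of both parental arrays. Adgre5 had 6.13 and 5.76 in P14 cells (1.13 ± 0.27, adjusted p = 0.00394), and Myl9 8.0 and 8.34 (-1.41 ± 0.35, adjusted p = 0.00516). Car4 differed by -0.82 ± 0.35 (adjusted p = 0.111) and was not called. The Adgre5 call was lost without the 1st P14 array (0.94, adjusted p = 0.0656) or the 1st parental array (0.90, adjusted p = 0.0719), and the Myl9 call without the 1st P14 array (-1.25, adjusted p = 0.0633) or the 2nd parental array (-1.25, adjusted p = 0.0585).

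P14A cells were higher in Myo1f and Enpp3 and lower in Myl9 and Greb1l than parental cells, with 5.65% of all tested genes higher and 6.81% lower. Myo1f had 5.01 and 4.86 in P14A cells, the largest of the 4 differences from parental cells at 1.86 ± 0.40 (adjusted p = 0.00184). Greb1l had 9.5 and 9.04 in P14A cells (-1.97 ± 0.42, adjusted p = 0.00174), and Enpp3 10.43 and 10.53 (1.19 ± 0.23, adjusted p = 0.000728). Car4 differed by -0.62 ± 0.35 (adjusted p = 0.253) and was not called. Myl9 had 8.25 and 8.28 in P14A cells (-1.32 ± 0.35, adjusted p = 0.00877), a call lost without the 1st P14A array (-1.30, adjusted p = 0.0548) or the 2nd parental array (-1.16, adjusted p = 0.0835). Adgre5 differed by 0.86 ± 0.27 (adjusted p = 0.0258), short of 2-fold, and reached it without the 2nd parental array (1.09, adjusted p = 0.0267). BP14 cells were higher in Myo1f and Enpp3 and lower in Myl9, with 6.39% of all tested genes higher and 6.43% lower. Enpp3 had 10.89 and 10.50 in BP14 cells (1.40 ± 0.23, adjusted p = 0.000152), and Myl9 7.27 and 8.40 (-1.75 ± 0.35, adjusted p = 0.000911), a pair of arrays more than 1 log2 unit apart. The Gapdh 5' minus 3' difference was -4.07 on the 1st of these arrays and -0.37 on the 2nd. Its part in the Myl9 values was not tested. Car4 differed by -0.73 ± 0.35 in BP14 cells (adjusted p = 0.154) and was not called. Myo1f had 4.38 and 4.32 in BP14 cells (1.27 ± 0.40, adjusted p = 0.0276), and without any 1 of the 4 arrays the adjusted p was 0.0723 to 0.132. Greb1l differed by -1.13 ± 0.42 (adjusted p = 0.064, and called at 0.0472 on the deposited values and 0.0126 with only the new arrays) and Adgre5 by 0.97 ± 0.27 (adjusted p = 0.0115, short of 2-fold), and Adgre5 was higher without the 2nd BP14 array (1.28, adjusted p = 0.00555) or the 2nd parental array (1.21, adjusted p = 0.0148). Enpp3 and Myo1f were called higher in all 4 factor combinations, each through the probe set used here. The 4 Myo1f differences share the parental arrays, which lay below the filter line, so their size is uncertain. In a fit over all probe sets, neither of the other 2 Myo1f probe sets was called in any of the 4, with differences of 0.87 to 1.96 (adjusted p 0.0683 to 0.493) and 0.17 to 1.46 (adjusted p 0.0999 to 0.893).

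**Figure D2:**
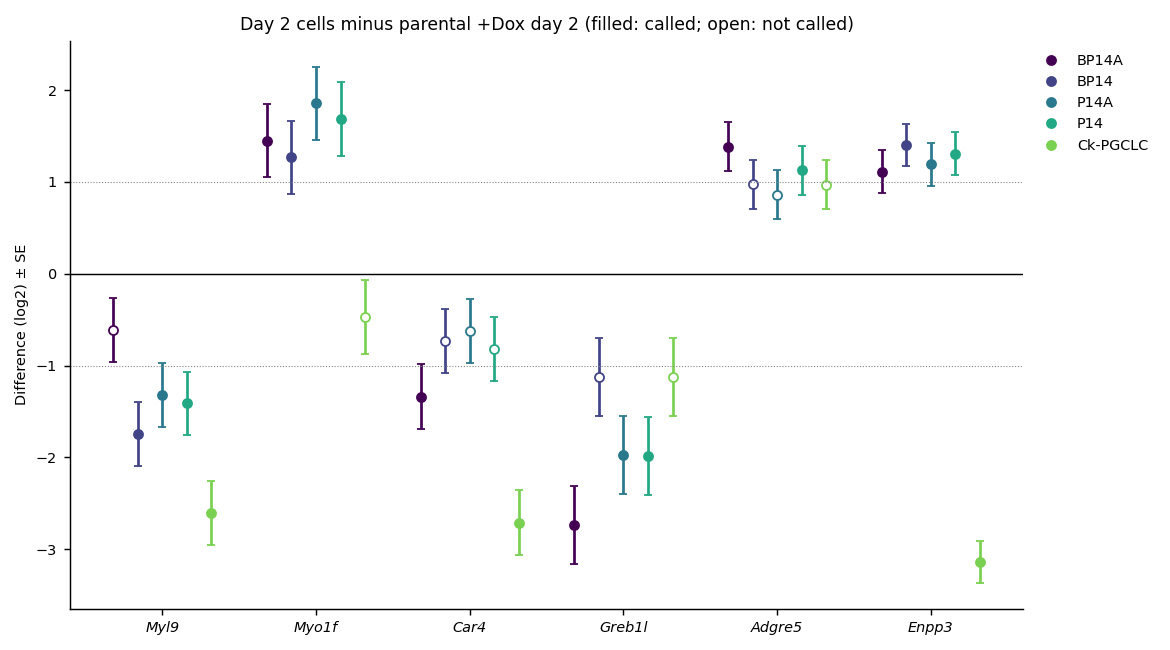
Difference of each gene (log2, mean ± SE, y axis) between day 2 cells of 5 kinds and parental cells with doxycycline at day 2; filled points passed the test, open points did not, and dotted lines mark 2-fold. Enpp3 is positive in the 4 factor combinations (1.11 to 1.40) and -3.14 in Ck-PGCLCs, and Greb1l is most negative in BP14A cells (-2.73).

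The factor combinations were also compared directly. Between day 2 BP14A cells and BP14 cells, which lack the Tfap2c transgene, limma called 0 of the 6 genes, and 2 had an unadjusted p under 0.05. By the calling rule, 0.0452% of all tested genes were higher and 0.284% lower. The share of all tested genes with an unadjusted p under 0.05 was not counted, so nothing is read from the 2 members. The largest differences were Greb1l at -1.61 (95% interval -2.49 to -0.72, adjusted p = 0.13), with 8.69 and 8.33 in BP14A cells and 10.32 and 9.92 in BP14 cells, and Myl9 at 1.14 (0.41 to 1.86, adjusted p = 0.227). The Myl9 difference was 1.70 without the 2nd BP14 array, a fit that leaves only the 1st. That 1st array had a Gapdh 5' minus 3' difference of -4.07, whose part in the Myl9 difference was not tested. Between day 2 BP14A cells and P14A cells, which lack the Blimp1 transgene, limma called 0 of the 6 genes. By the calling rule, 0% of all tested genes were higher there and 0.0129% lower. Of the 6 genes 0 had an unadjusted p under 0.05, again with no share over all genes at that threshold. Differences there ran from -0.76 for Greb1l (interval -1.65 to 0.13) to 0.71 for Myl9 (interval -0.02 to 1.43). These intervals still allow differences above 2-fold for both genes.

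Culture with doxycycline but no factor transgene was compared with the 36 h EpiLCs from which the aggregates were made. Greb1l had 11.51 and 10.99 in parental cells at day 2, against 6.22 and 6.31 in EpiLCs, a difference of 4.98 ± 0.42 (adjusted p = 4.56e-08). Greb1l was thus high in cells without factor transgenes, with both parental arrays far above both EpiLC arrays. Enpp3 had 9.25 and 9.33 in parental cells and 10.35 and 10.32 in EpiLCs, a difference of -1.04 ± 0.23 (adjusted p = 0.00244) at the edge of 2-fold: it was -0.92 on the deposited values, and likewise short of 2-fold after median centring. These were 1 higher and 1 lower of the 6 genes, where 7.23% and 5.63% of all tested genes were higher and lower. Myo1f (-1.02, adjusted p = 0.072; called at 0.0398 with only the new arrays in the fit and 0.0467 with only the arrays compared), Myl9 (0.49, adjusted p = 0.359), Car4 (0.36, adjusted p = 0.527) and Adgre5 (0.14, adjusted p = 0.77) did not pass the test. Myl9, Car4 and Enpp3 were above log2 8.9 in every EpiLC and parental array, that is, in arrays of cells without factor transgenes.

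Ck-PGCLCs at day 2 were lower than parental cells in Myl9, Car4 and Enpp3, 3 of the 6 genes where 1.41% of all tested genes were lower, and higher in 0 where 2.32% were higher. The members' median difference was -1.87, against 0.02 over all tested genes. Enpp3 had 6.06 and 6.25 in Ck-PGCLCs, against 9.25 and 9.33 in parental cells, a difference of -3.14 ± 0.23 (adjusted p = 3.46e-08). Car4 had 9.84 and 9.46 in Ck-PGCLCs and 12.23 and 12.50 in parental cells (-2.71 ± 0.35, adjusted p = 3.96e-05). Myl9 had 7.14 and 6.82 in Ck-PGCLCs and 9.42 and 9.74 in parental cells (-2.60 ± 0.35, adjusted p = 5.51e-05). No Ck-PGCLC array reached a parental array in any of the 3 genes. Greb1l differed by -1.13 ± 0.42 (adjusted p = 0.163, and called at 0.0361 with only the new arrays), Adgre5 by 0.97 ± 0.27 (adjusted p = 0.0381, short of 2-fold; it was called on the deposited values, at 1.04, and after median centring) and Myo1f by -0.47 ± 0.40 (adjusted p = 0.688).

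The factor route and the cytokine route were compared at each day. At day 2, BP14A cells were higher than Ck-PGCLCs in Myl9, Myo1f, Car4 and Enpp3 and lower in Greb1l, 4 and 1 of the 6 genes where 5.55% and 7.01% of all tested genes were higher and lower. Enpp3 had 10.59 and 10.22 in BP14A cells, against 6.06 and 6.25 in Ck-PGCLCs, a difference of 4.25 ± 0.23 (adjusted p = 1.55e-10). The nearest arrays of the 2 groups lay about 4 log2 units apart. Myl9 differed by 1.99 ± 0.35 (adjusted p = 0.000238), Myo1f by 1.92 ± 0.40 (adjusted p = 0.00135), Car4 by 1.37 ± 0.35 (adjusted p = 0.00697), Greb1l by -1.61 ± 0.42 (adjusted p = 0.00878) and Adgre5, not called, by 0.42 ± 0.27 (adjusted p = 0.323). Both Ck-PGCLC arrays lay below the filter line in Myo1f, so the size of its difference is uncertain. Without the 1st BP14A array Myo1f (1.24, adjusted p = 0.0542) and Car4 (1.16, adjusted p = 0.0843) were no longer called, nor was Car4 without the 2nd Ck-PGCLC array (1.18, adjusted p = 0.0814). Greb1l was not called without the 2nd BP14A array (-1.43, adjusted p = 0.0743) or the 1st Ck-PGCLC array (-1.46, adjusted p = 0.0744).

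At day 4, BP14A cells were higher than Ck-PGCLCs in Myl9, Car4, Greb1l, Adgre5 and Enpp3, 5 of the 6 genes where 3.39% of all tested genes were higher. The members' median difference was 1.26, against 0.005 over all tested genes. Car4 had 11.23 and 11.68 in BP14A cells, against 8.08 and 7.82 in Ck-PGCLCs (3.50 ± 0.35, adjusted p = 2.56e-06). Greb1l had 9.06 and 10.03 in BP14A cells and 6.68 and 6.58 in Ck-PGCLCs (2.92 ± 0.42, adjusted p = 0.00014). Greb1l was thus on opposite sides at the 2 days, below the cytokine cells at day 2 and above them at day 4. Enpp3 had 10.10 and 10.37 in BP14A cells and 8.95 and 8.99 in Ck-PGCLCs (1.27 ± 0.23, adjusted p = 0.00124), and Adgre5 8.53 and 8.07 in BP14A cells and 7.01 and 7.09 in Ck-PGCLCs (1.25 ± 0.27, adjusted p = 0.00422). The Adgre5 call was lost without the 1st BP14A array (1.03, adjusted p = 0.0748). Myl9, with 8.42 and 8.97 in BP14A cells and 7.83 and 7.23 in Ck-PGCLCs (1.17 ± 0.35, adjusted p = 0.035), was not called without any 1 of the 4 arrays (adjusted p 0.0541 to 0.255). Myo1f differed by 0.35 ± 0.40 (adjusted p = 0.669). The Gapdh 5' minus 3' difference was -4.66 and -2.99 in these BP14A arrays and -0.47 and -1.62 in the Ck-PGCLC arrays. Endothelial markers averaged log2 4.79 to 5.18 in the BP14A arrays and 5.95 to 6.52 in the Ck-PGCLC arrays. The part of either in these differences was not tested.

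Over days 2 and 4 of the factor route, Adgre5 was the only 1 of the 6 genes to change by the test. It had 8.53 and 8.07 at day 4 of BP14A cells, against 6.44 and 5.97 at day 2, a rise of 2.10 ± 0.27 (adjusted p = 0.000272), where 0.936% of all tested genes were higher at day 4 and 0.497% lower. This call was lost in a fit on those 4 arrays alone (adjusted p = 0.159). Greb1l, at 9.06 and 10.03 on day 4 and 8.69 and 8.33 on day 2, had a difference of 1.03 ± 0.42 (adjusted p = 0.247). Its day 4 arrays were both above its day 2 arrays but nearly 1 log2 unit apart. Both day 4 arrays of BP14A cells had a low Gapdh 5' minus 3' difference, -4.66 and -2.99 at day 4 against -1.03 and -0.58 at day 2, and its part in the rise of Adgre5 was not tested. On the cytokine route, Adgre5, Enpp3 and, at levels below the filter line, Myo1f were higher at day 4 than at day 2 and Car4 and Greb1l lower, 3 and 2 of the 6 genes where 5.68% and 6.84% of all tested genes were higher and lower. From day 2 to day 4, Enpp3 changed by 2.81 ± 0.23 (adjusted p = 4.42e-08), Adgre5 by 1.26 ± 0.27 (adjusted p = 0.00163), Greb1l by -3.49 ± 0.42 (adjusted p = 4.63e-06) and Car4 by -1.70 ± 0.35 (adjusted p = 0.00126). Myo1f, at 3.64 and 4.02 on day 4 and 2.49 and 2.72 on day 2, below the filter line on all 4 arrays, changed by 1.22 ± 0.40 (adjusted p = 0.0342) and was not called without any 1 of these arrays (adjusted p 0.069 to 0.203). Whether the gene was detected on these arrays is not known. Of 10 endothelial markers 6 were higher at day 4 than at day 2 of this route (list median 2.18 against 0.02 over all tested genes, list averages of log2 5.95 to 6.52 at day 4 and 4.20 to 4.49 at day 2), and their part in the changes of the 6 genes was not tested. Adgre5 thus rose on both routes.

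The difference between the routes in the change from day 2 to day 4 was tested as an interaction (BP14A minus Ck-PGCLC), in which 6.92% of all tested genes were higher and 4.92% lower. Greb1l differed by 4.52 ± 0.60 (adjusted p = 3.18e-05), Car4 by 2.13 ± 0.49 (adjusted p = 0.00545) and Enpp3 by -2.98 ± 0.33 (adjusted p = 4.12e-06). The negative sign for Enpp3 comes with a level that was high at day 2 in BP14A cells and low at day 2 in Ck-PGCLCs. Myo1f (-1.57, adjusted p = 0.0711), Myl9 (-0.83, adjusted p = 0.311) and Adgre5 (0.84, adjusted p = 0.163) did not pass the test, and Myo1f did with only the new arrays (adjusted p = 0.0383) and without the 2nd day 2 BP14A array (-2.25, adjusted p = 0.00944).

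**Figure D3:**
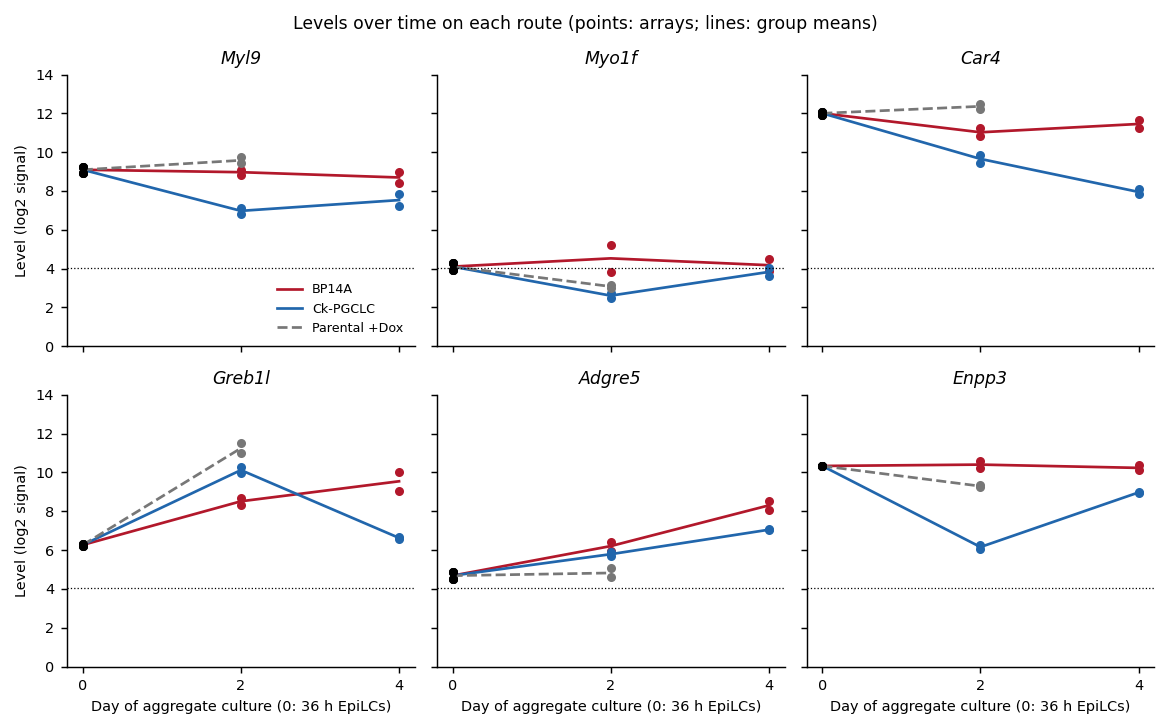
Level of each gene (log2 signal, y axis) on 36 h EpiLC arrays (day 0) and at days 2 and 4 of aggregate culture (x axis) for BP14A cells (red), Ck-PGCLCs (blue) and, to day 2, parental cells with doxycycline (grey); points are arrays and lines join group means. Enpp3 and Car4 stay within about 1 log2 unit of the EpiLC level in BP14A cells and lie further below it in Ck-PGCLCs, where Enpp3 is near 6 at day 2 and near 9 at day 4, and Greb1l is above its EpiLC level at day 2 on every route.

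The earlier arrays gave an ESC comparison that involves neither factors nor doxycycline. In 48 h EpiLCs, Myl9, Car4, Greb1l and Enpp3 were higher than in 2i+LIF ESCs, 4 of the 6 genes where 7.26% of all tested genes were higher. The members' median difference was 3.42, against 0.02 over all tested genes. The choosing contrast favours genes that are low in 2i+LIF ESCs, the state of these ESCs too. The share and the median therefore depend on the choice of the genes, and nothing is read from them. Car4 had 11.67 and 12.34 in EpiLCs, against 3.71 and 2.56 in ESCs, a difference of 8.87 ± 0.35 (adjusted p = 1.87e-12). Myl9 had 9.71 and 10.06 in EpiLCs and 3.56 and 2.65 in ESCs (6.79 ± 0.35, adjusted p = 6.65e-11). On the probe sets used, both ESC arrays lay below the filter line for these genes, as both untreated BP14A ESC arrays did. Whether the genes were detected there is not known, so the size of these 2 differences is uncertain. Greb1l had 6.50 and 7.65 in EpiLCs and 4.02 and 2.85 in ESCs (3.64 ± 0.42, adjusted p = 2.37e-06). Both ESC arrays of Greb1l also lay below the filter line, so the size of its difference is uncertain as well. Enpp3 had 9.71 and 10.07 in EpiLCs and 6.51 and 6.88 in ESCs (3.20 ± 0.23, adjusted p = 5.48e-09). Myo1f, with 4.01 and 4.07 in EpiLCs and 3.84 and 2.98 in ESCs (0.63 ± 0.40, adjusted p = 0.288), and Adgre5, with 5.12 and 4.94 in EpiLCs and 5.61 and 5.74 in ESCs (-0.65 ± 0.27, adjusted p = 0.0875), did not pass the test. The 4 calls held in every fit that left out 1 array. In the same comparison 10 of the 11 naive ESC markers were lower in EpiLCs.

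In day 6 Ck-PGCLCs against 48 h EpiLCs, Adgre5 was higher and Car4 and Greb1l lower, 1 and 2 of the 6 genes where 9.26% and 9.38% of all tested genes were higher and lower. Adgre5 had 7.61 and 7.86 in Ck-PGCLCs, against 5.12 and 4.94 in EpiLCs (2.71 ± 0.27, adjusted p = 1.94e-07). Car4 had 7.88 and 7.96 in Ck-PGCLCs and 11.67 and 12.34 in EpiLCs (-4.09 ± 0.35, adjusted p = 2.93e-08), and Greb1l 4.24 and 4.15 in Ck-PGCLCs and 6.50 and 7.65 in EpiLCs (-2.88 ± 0.42, adjusted p = 2.57e-05). The groups did not overlap in any of these genes. Myl9 (-0.78, adjusted p = 0.0977), Myo1f (0.65, adjusted p = 0.239) and Enpp3 (-0.04, adjusted p = 0.919) did not pass the test.

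In the embryo, PGCs of E9.5 were compared with the epiblast of E5.5. Car4 had 7.25 and 6.15 in PGCs, against 12.55 and 12.70 in the epiblast, a difference of -5.93 ± 0.35 (adjusted p = 2.15e-10). Greb1l had 8.80 and 7.72 in PGCs and 6.76 and 6.16 in the epiblast (1.80 ± 0.42, adjusted p = 0.00294), and Enpp3 9.96 and 10.51 in PGCs and 9.18 and 9.26 in the epiblast (1.02 ± 0.23, adjusted p = 0.00225). Greb1l and Enpp3 were thus higher and Car4 lower, 2 and 1 of the 6 genes where 8.9% and 6.9% of all tested genes were higher and lower. Both PGC arrays were above both epiblast arrays in Greb1l and Enpp3. Endothelial markers averaged log2 5.74 to 6.12 in PGCs and 4.38 to 4.39 in the epiblast, with 4 of 10 higher and 0 lower, and fibroblast markers 5.39 to 6.56 in PGCs and 4.25 to 4.53 in the epiblast, with 5 of 12 higher and 2 lower. The part of such cells in these values was not tested. The Greb1l call was lost without the 1st PGC array (1.26, adjusted p = 0.0693), and that of Enpp3 without the 2nd PGC array (0.74, adjusted p = 0.0545) or, short of 2-fold, the 1st epiblast array (0.98, adjusted p = 0.0208). Myl9 (-0.19, adjusted p = 0.754), Myo1f (-0.43, adjusted p = 0.493) and Adgre5 (0.49, adjusted p = 0.197) did not pass the test.

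Day 6 Ck-PGCLCs, the culture counterpart of PGCs, were higher than E9.5 PGCs in Myl9, Myo1f, Car4 and Adgre5 and lower in Greb1l, 4 and 1 of the 6 genes where 3.9% and 3.46% of all tested genes were higher and lower. Greb1l had 4.24 and 4.15 in Ck-PGCLCs, against 8.80 and 7.72 in PGCs (-4.07 ± 0.42, adjusted p = 2.05e-06), and Adgre5 7.61 and 7.86 in Ck-PGCLCs and 4.26 and 4.61 in PGCs (3.30 ± 0.27, adjusted p = 8.6e-08). In both genes the groups were more than 2 log2 units apart at their nearest arrays. Both PGC arrays lay below the filter line in Myo1f, so the size of its difference is uncertain. Without the 2nd PGC array Myl9 (1.58 in all arrays, adjusted p = 0.00393) was not called (1.24, adjusted p = 0.0637), nor was Car4 (1.22 in all arrays, adjusted p = 0.0256; 0.66, adjusted p = 0.315) or Myo1f (1.38 in all arrays, adjusted p = 0.0273; 0.78, adjusted p = 0.31). Car4 was also not called without either Ck-PGCLC array (1.26, adjusted p = 0.0815, without the 1st and 1.18, adjusted p = 0.125, without the 2nd), and Myo1f not without the 2nd (1.01, adjusted p = 0.26). Endothelial markers averaged log2 7.59 to 7.63 in these Ck-PGCLC arrays, and their part in the result was not tested.

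**Figure D4:**
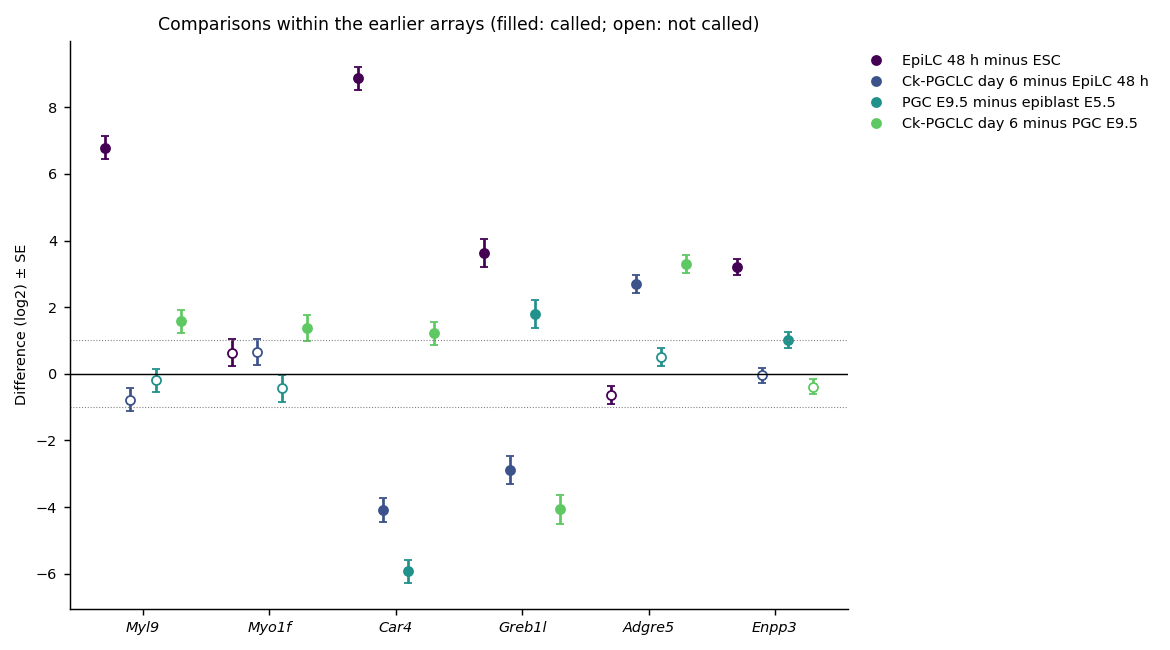
Difference of each gene (log2, mean ± SE, y axis) in the 4 comparisons within the earlier arrays; filled points passed the test, open points did not, and dotted lines mark 2-fold. Car4 ranges from 8.87 (48 h EpiLCs minus ESCs, whose level lies below the filter line) to -5.93 (PGCs minus epiblast), while Adgre5 is highest in day 6 Ck-PGCLCs against both PGCs (3.30) and EpiLCs (2.71).

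Of the 14 probe sets that name these genes, Myl9 and Adgre5 had 1 each, Car4 and Greb1l 2, Myo1f 3 and Enpp3 5. The 3 Myo1f probe sets had group means of 9.32, 9.10 and 8.05 in BP14A ESCs with doxycycline and 2.55, 2.61 and 2.61 in BP14A ESCs in the contrast that chose the gene. Outside it they differed: between PGCs and the epiblast the probe set used had -0.43 (adjusted p = 0.55 over all probe sets) and the others 1.86 (0.072) and -0.99 (0.263). The other Car4 probe set had 8.47 and 9.06 with doxycycline and 4.42 and 4.39 without, and in a fit over all probe sets it was likewise lower in day 2 BP14A cells than in parental cells (-1.76, adjusted p = 0.000104) and in PGCs than in the epiblast (-6.09, adjusted p = 2.02e-11). The other Greb1l probe set had group means between 2.10 and 4.21 over the 16 groups, 3.30 with doxycycline and 3.38 without, so every Greb1l value here rests on 1 probe set. Enpp3 was uneven. Its probe sets other than the one used had means of 8.96 with doxycycline and 4.35 without, 8.48 and 2.60, 5.49 and 5.02, and 4.05 and 3.85. One of them, with 4.81 and 7.76 in day 2 BP14A cells and 2.46 and 5.28 in parental cells, differed by nearly 3 log2 units between replicate arrays of a group. With the mean of all 5 probe sets in place of the single one, the Enpp3 differences from parental cells were 1.12 for BP14A (adjusted p = 0.235), 1.40 for BP14 (0.127), 0.86 for P14A (0.406) and 1.27 for P14 (0.179). No factor line was called, although the differences of BP14A, BP14 and P14 cells were within 0.05 of those of the single probe set. That of day 2 Ck-PGCLCs was smaller, at -1.20 (0.389) in place of -3.14. Also not called with this mean were parental cells against EpiLCs (-0.81, adjusted p = 0.413), day 4 against day 2 Ck-PGCLCs (1.55, 0.0947), BP14A cells against Ck-PGCLCs at day 4 (1.41, 0.181), 48 h EpiLCs against ESCs (1.40, 0.121), PGCs against the epiblast (0.89, 0.346) and the interaction (-0.91, 0.593). BP14A cells against Ck-PGCLCs at day 2 were the exception, where Enpp3 stayed higher (2.32, 0.0104). With a replicate block beside this mean, a setting added after seeing the data, the difference was called in BP14 cells against parental cells (adjusted p = 0.0363) but not in BP14A (0.0934), P14A (0.228) or P14 cells (0.059).

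**Figure D5:**
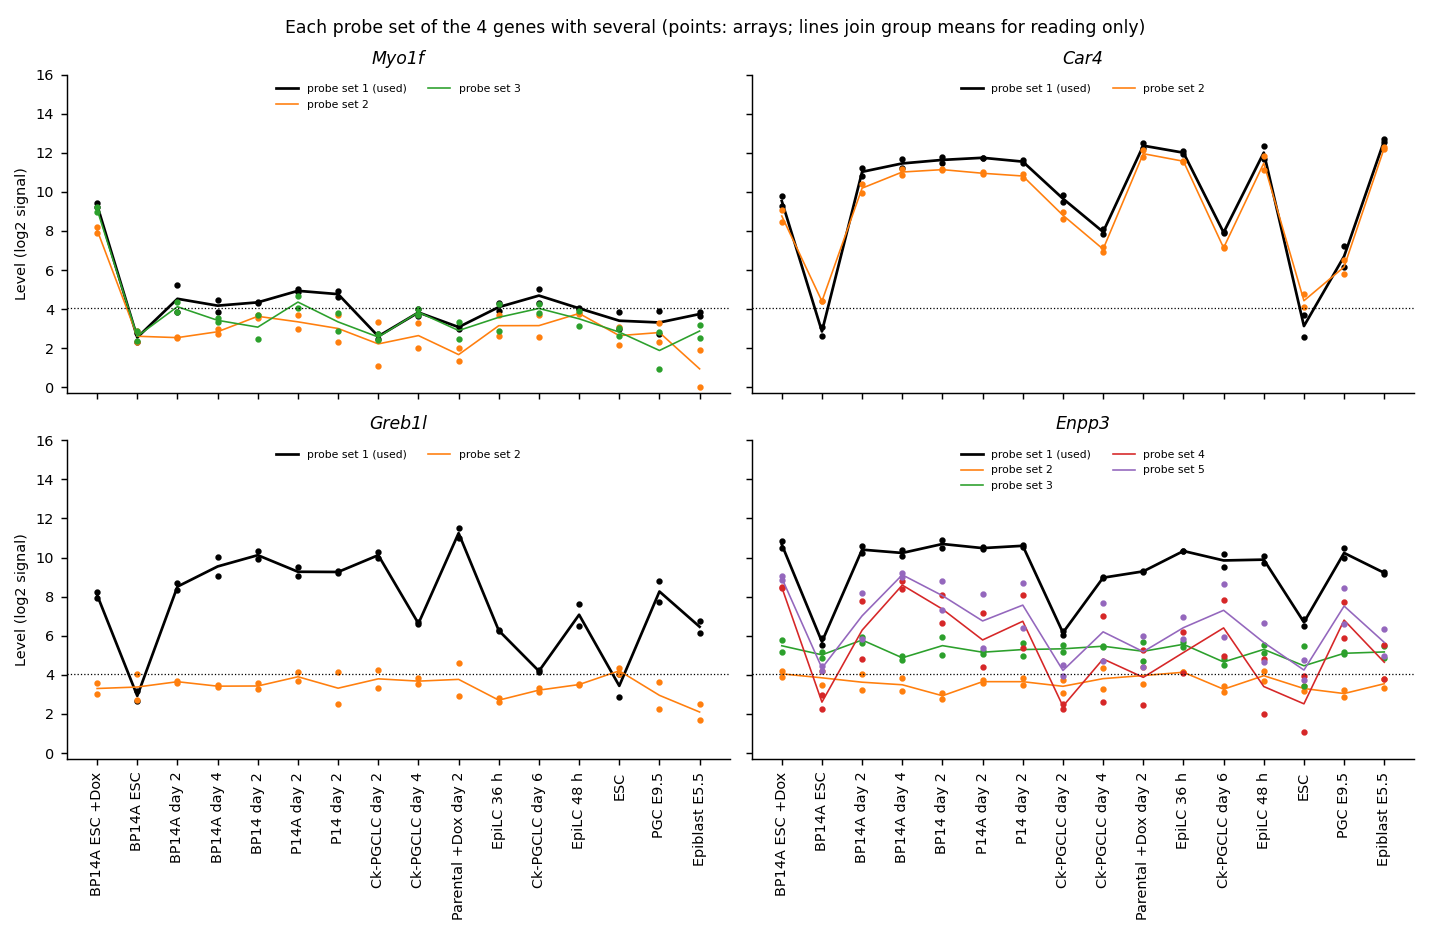
Level of every probe set (log2 signal, y axis) of the 4 genes with several, on each array (points) in the 16 groups (x axis), with lines joining group means only to guide the eye; the thick black line is the probe set used. The probe sets of Car4 vary alike, but in ESCs without doxycycline the one not used lies above the filter line and the one used below it. Those of Myo1f are all high in BP14A ESCs with doxycycline but part from each other in other groups. The second of Greb1l is flat near 3.40, and those of Enpp3 split into flat and varying ones, with wide replicate gaps in probe sets 4 and 5.

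Over the 14 groups outside the choosing contrast, the 6 genes did not vary as a block. The SD of the 14 group means was 2.75 for Car4, 2.30 for Greb1l, 1.65 for Myl9, 1.41 for Enpp3, 1.24 for Adgre5 and 0.68 for Myo1f. Pearson's r between members over these 14 means was 0.77 for Myl9 with Car4, 0.74 for Myo1f with Enpp3, 0.68 for Myl9 with Enpp3, 0.60 for Car4 with Greb1l and -0.18 for Car4 with Adgre5. These points share arrays, cell lines and normalization and describe these groups alone. The genes most like each member over the 14 means, among genes whose means had an SD of at least 1, were Inpp5f (r = 0.83) and Dusp9 (0.81) for Myl9, Kndc1 (0.91) and Hecw2 (0.88) for Myo1f, and Trpc1 (0.97) and Rasef (0.96) for Car4. For Greb1l they were Mcoln3 (0.91) and Cracd (0.90), for Adgre5 Eps8l2 (0.85) and Neat1 (0.85), and for Enpp3 Prelid3a (0.92) and Phactr3 (0.89). Utf1, a marker of pluripotent cells, was also among the 5 nearest to Myo1f (0.86), out of 1325 candidates. Myo1f itself varied little over these groups (SD 0.68), and many of its means lay below the filter line. Whether it was detected in those groups is not known, which limits the reading of its neighbours.

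Relatives of the 6 genes were read from family lists that leave the members out. Of 26 tested myosin II and contractile genes, 0 were higher and 9 lower in day 2 BP14A cells than in parental cells (6.63% and 7.25% of all tested genes), with a median of -0.38 against 0.05 over all tested genes. The calponin gene Cnn1 (-4.13), the actin-binding Tagln (-3.34) and smooth muscle actin Acta2 (-2.58) had the largest falls, while Myl9 at -0.61 was not called. In 48 h EpiLCs against ESCs, 7 of these 26 genes were higher and 0 lower (7.26% and 7.09% of all tested genes; median 0.55 against 0.02), with Cnn1 at 2.62, Cnn2 at 2.42 and the transcription factor gene Srf at 2.39, beside Myl9 at 6.79. Of 15 unconventional myosins other than Myo1f, 0 were higher in BP14A than in parental cells and Myo18a was lower (-1.29). With 6.63% and 7.25% of all tested genes higher and lower there, nothing is read from these counts.

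Carbonic anhydrase genes moved in both directions. Of 14 tested besides Car4, 2 were higher and 3 lower in day 2 BP14A cells than in parental cells, where the shares over all tested genes were 6.63% and 7.25%, with Car12 at 4.46, Car8 at 2.74 and Car2 at -4.13. In PGCs against the epiblast 3 were higher and 3 lower (8.9% and 6.9% of all tested genes), again with Car12 (4.72) and Car8 (4.04) higher and Car2 (-2.53) lower, beside Car4 (-5.93). Car12 codes for a membrane-bound enzyme and Car2 for the main cytosolic one. In 48 h EpiLCs against ESCs, Car2 (4.06) and Car12 (2.61) were higher along with Car4, and Car8 (-3.84) was lower.

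Of 16 tested adhesion receptor genes and Cd55 genes other than Adgre5, 2 were higher and 3 lower in day 2 BP14A cells than in parental cells (6.63% and 7.25% of all tested genes), led by Adgrg6 (3.71) and Adgrb2 (-3.40). Cd55, the ligand gene of Adgre5, rose with it between day 2 and day 4 of BP14A cells (1.44) and was higher in BP14A cells than in Ck-PGCLCs at day 4 (2.01). In Ck-PGCLCs it was lower at day 4 than at day 2 (-1.08), where Adgre5 was higher. Of 8 tested ectonucleotidase genes besides Enpp3, 4 were higher in PGCs than in the epiblast (8.9% of all tested genes). Among them were Enpp4 (4.01) and the alkaline phosphatase gene Alpl (3.70), a classical PGC marker. In 48 h EpiLCs against ESCs 0 of the 8 were higher and 3 lower (7.26% and 7.09% of all tested genes), among them Alpl (-2.29), where Enpp3 was higher by 3.20. Greb1, the relative of Greb1l, was lower in BP14A than in parental cells (-5.39), higher in parental cells than in 36 h EpiLCs (3.48) and higher at day 4 than at day 2 of BP14A cells (2.05), comparisons in which Greb1l was lower, higher and, at 1.03, not called.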

How the data were processed

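Per the labels' protocols and the design text, cDNA was amplified by a global PCR method and hybridised to 1-colour Affymetrix arrays. The deposited values are log2 signals, 1 per probe set and array, from 0 to 14.59; that they are log2 was read from the values, and their summarisation and normalization software is not given in the sources used here. Deposited array medians ranged over 0.16, above the tolerance of 0.1, so the arrays were quantile normalized, which hides any change in total RNA. Of 45101 probe sets, 34945 had 1 gene symbol in GEO's platform annotation (932 had several and 9160, controls aside, were not listed), and 34741 matched RefSeq genes of GRCm38.p6, used for current symbols. Each of 18193 genes was read through its brightest probe set on average. The 15497 genes tested had a mean at or above the 40th percentile in 1 group or more.

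All 32 arrays entered a single limma model (version 3.58.1, R 4.3.3, and version 1.17.8 of data.table) with a mean per group and 16 residual degrees of freedom. Each of 16 comparisons was a contrast, beside 1 interaction, and a gene was called with an adjusted p (Benjamini-Hochberg) under 0.05 and a 2-fold or larger difference. The procedure was tested on simulated data. No array was a copy of another (0 identical replicate pairs). Alternatives were deposited values, median centring, the mean of all probe sets, no filter or the 60th percentile, trend and robust options, a replicate block, an adjusted p under 0.01, no fold limit, fewer arrays in the fit, and each array left out in turn; leaving out 6 arrays of low Gapdh 5' minus 3' difference fitting each probe set alone and the mean of all probe sets with a replicate block were added after seeing the data.

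The 6 genes and all lists were chosen with earlier results of these data known. The genes named are the members, the next 6 by the choosing contrast, those nearest to each member over 14 group means, and up to 3 called genes per direction of each family list.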

Additional observations from a re-analysis of the deposited data

Results flagged for a closer look

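For 3 of the 6 genes the change between day 2 and day 4 differed between the factor route and the cytokine route, by the interaction term of the limma model with p-values adjusted over all tested genes. Greb1l changed by 1.03 in BP14A cells and -3.49 in Ck-PGCLCs, a difference of 4.52 ± 0.60 (log2 ± SE, adjusted p = 3.18e-05). Both BP14A arrays of day 4 lay above both of day 2, and both Ck-PGCLC arrays of day 4 lay below both of day 2. Enpp3 changed by -0.17 in BP14A cells and 2.81 in Ck-PGCLCs, a difference of -2.98 ± 0.33 (adjusted p = 4.12e-06). With the mean of its 5 probe sets this Enpp3 difference was -0.91 and not called (adjusted p = 0.593). Car4 changed by 0.43 in BP14A cells and -1.70 in Ck-PGCLCs, a difference of 2.13 ± 0.49 (adjusted p = 0.00545), and its other probe set gave 2.56 (adjusted p = 0.000211). Both day 4 arrays of BP14A cells had a Gapdh 5' minus 3' difference below -2.5 (-4.66 and -2.99), and its part in these results was not tested.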

How the results depend on the processing

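Over all comparisons and settings, 1547 values kept their direction and their side of the threshold, 87 lost a call, 18 gained one and 22 changed sign, the last all in differences that had not been called. Counts of called members moved by more than 1.5 times under these settings. Parental cells against 36 h EpiLCs had 1 call (2 in the report) on deposited values, after median centring and with the mean of all probe sets, which also gave 2 for P14A against parental cells (these counts were the same, 1 and 2, with a replicate block beside the mean, a choice made after seeing the data) and 3 for day 4 against day 2 Ck-PGCLCs. An adjusted p under 0.01 left 3 for day 6 Ck-PGCLCs against PGCs. With only the new or only the earlier arrays, BP14A against BP14 cells had 1 call (Greb1l, adjusted p = 0.0248), PGCs against epiblast 1 and day 6 Ck-PGCLCs against PGCs 3. With only the arrays of the groups compared, day 4 against day 2 BP14A cells had 0 calls (Adgre5, adjusted p = 0.159), BP14A against Ck-PGCLCs at day 4 had 3, PGCs against epiblast 1 and day 6 Ck-PGCLCs against PGCs 2, in fits with fewer samples. Those last fits also lost Myo1f in BP14A against parental cells (adjusted p = 0.115) and against day 2 Ck-PGCLCs (0.0757), and Myl9 in BP14 against parental cells (0.0804). No filter, the 60th percentile filter and the trend and robust options moved none of these counts by that much, and no scaling moved the median of all genes by more than 0.1.

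Leaving out each array in turn gave 3 to 4 called members for BP14A against parental cells (5 with all arrays), 0 to 1 against BP14 cells, 3 to 4 against Ck-PGCLCs at day 2 and 3 to 4 at day 4, 3 to 5 for P14 against parental cells and 2 to 5 for day 6 Ck-PGCLCs against PGCs. Sign changes came in differences near 0. For Myo1f the ranges were -0.50 to 0.86 for BP14A against BP14, -1.09 to 0.27 against P14A, -1.03 to 0.33 for day 4 against day 2 BP14A cells and -1.02 to 0.16 for PGCs against epiblast (0.14 with the mean of all probe sets). For Enpp3 they were -0.26 to 0.10 for BP14A against P14A, -0.35 to 0.013 for day 4 against day 2 BP14A cells and -0.38 to 0.30 for day 6 Ck-PGCLCs against EpiLCs. For these Enpp3 comparisons the mean of all probe sets gave 0.26, 0.64 and 0.65, and the deposited values gave 0.02 for the last. For Myl9 they were -0.55 to 0.00047 for day 4 against day 2 BP14A cells and -0.53 to 0.14 for PGCs against epiblast, and for Adgre5 -0.092 to 0.37 for parental cells against EpiLCs (-0.032 without the 6 arrays of low Gapdh difference, a choice made after seeing the data). The cause of these changes was not tested.

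No label says that a replicate number marks a shared culture, batch or day. Same-numbered arrays had correlations of -0.0852 to 0.458 in their deviations from the group means, over 0.1 in 12 of 16 comparisons, so the block was kept as an alternative. With a replicate block in the fit, BP14A against parental cells kept a count of 5 called members, and no comparison's count of called members moved by more than 1.5 times. Groups of 2 arrays and the reading of each gene through a single probe set limit these values. Without detection calls, a level below log2 4.05 does not show that a gene was off. Counts of genes called over the whole array moved by more than 1.5 times as follows. BP14A against BP14 cells had 51 genes, against 94 with only the new arrays, 0 with only the arrays compared, 29 with the mean of all probe sets (27 with a replicate block beside it), 16 at an adjusted p under 0.01, 10 without the arrays of low Gapdh difference and 9 to 199 with 1 array left out. BP14A against P14A cells had 2, against 0 to 6 over those settings. Day 4 against day 2 BP14A cells had 222, against 0 with only those arrays, 74 at an adjusted p under 0.01, 357 with no fold limit and 60 to 137 with 1 array left out. With no fold limit the count was 3579 for BP14A (2151 with it), 3440 for BP14 (1986), 3267 for P14A (1932) and 3355 for P14 (2005) against parental cells, 3678 for parental cells against EpiLCs (1992) and 3305 for day 4 against day 2 Ck-PGCLCs (1941). It was 3243 for BP14A against Ck-PGCLCs at day 2 (1946) and 1754 at day 4 (949), 3776 for EpiLCs against ESCs (2224), 4930 for day 6 Ck-PGCLCs against EpiLCs (2888), 4263 for PGCs against epiblast (2450) and 1917 for day 6 Ck-PGCLCs against PGCs (1140). The last was 756 with only the earlier arrays and 171 with only those compared, PGCs against epiblast was 1503 with only those compared, and BP14A against Ck-PGCLCs at day 4 was 598 without the 1st day 4 Ck-PGCLC array.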
